A study of Mus musculus with 217 samples.

Results

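The 10 genes described here encode proteoglycans of the cell surface and basement membrane, a hyaluronan receptor, and enzymes that make hyaluronan and heparan sulfate. They are the syndecans Sdc1, Sdc2, Sdc3 and Sdc4, the glypican Gpc1, the basement membrane proteoglycan Hspg2 (perlecan), the hyaluronan synthases Has1 and Has2, the hyaluronan receptor Cd44, and Ext1, a polymerase of heparan sulfate chains. They were chosen by symbol from the 52550 gene rows of the deposited count tables, and all 10 were found. The RNA came from RiboTagEC mice of genotype Cdh5CreERT2/+; Rpl22HA/+ on C57BL/6J, adult at collection and given 5 mg of tamoxifen by gavage 4 times at 4 to 6 weeks of age, in which the Cdh5 (VE-cadherin) promoter drives Cre and Cre puts an HA tag on the ribosomal protein Rpl22. HA-tagged ribosomes were pulled down from frozen brain, lung and heart, so the counts report mRNA on ribosomes. Every group, the 0 hr control included, carried both alleles and received tamoxifen, and the groups differed in tissue and in hours after 1 intraperitoneal injection of lipopolysaccharide (LPS) at 10 mg/kg: 0 hr (no LPS), 6, 24, 48, 72 and 168 hr. After the runs of each library were summed there were 98 libraries, of which 80 with at least 3% of reads on genes were kept: 5, 5, 4, 6, 4 and 4 in brain, 4, 4, 2, 6, 4 and 4 in lung, and 5, 5, 4, 6, 4 and 4 in heart, in order of time.

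The glycocalyx is a layer of proteoglycans and glycosaminoglycans on the luminal face of endothelium. Syndecans cross the membrane and carry heparan sulfate on their outer domain, glypicans hang on a lipid anchor, and hyaluronan is a long unsulfated chain spun out at the membrane by the hyaluronan synthases and held by receptors such as Cd44. In sepsis and endotoxaemia the layer is known to be shed by proteases and glycosidases, and shed syndecan ectodomains are used as plasma markers of that loss.

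Because Sdc4 and Cd44 carry much of what follows, the sequence before their transcription starts is given (RefSeq, GRCm38.p6; 250 bases, 5′ to 3′ on the minus strand). The window of Sdc4 is chr2:164443189-164443438, inside the span of the gene in GENCODE M21 but in an intron, and that of Cd44 is chr2:102901666-102901915, upstream of the gene. Capitals mark the match to the NF-kB consensus, searched on both strands.
Sdc4: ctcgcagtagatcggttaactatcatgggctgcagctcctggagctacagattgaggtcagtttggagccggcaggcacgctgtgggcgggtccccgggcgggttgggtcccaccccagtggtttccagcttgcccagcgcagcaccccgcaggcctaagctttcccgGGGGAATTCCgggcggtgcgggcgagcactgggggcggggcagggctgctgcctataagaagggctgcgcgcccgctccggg
Cd44: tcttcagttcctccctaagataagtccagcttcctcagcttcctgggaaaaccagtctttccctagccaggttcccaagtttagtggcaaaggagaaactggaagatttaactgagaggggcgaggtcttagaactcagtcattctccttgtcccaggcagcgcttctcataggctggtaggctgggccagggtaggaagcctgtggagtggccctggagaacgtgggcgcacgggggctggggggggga
RefSeq windows of 300 bases (250 before to 50 after the start) were at hand for 6 of the 10 genes (Sdc1, Sdc3, Sdc4, Hspg2, Has1 and Cd44). The NF-kB consensus was found in 1 of the 6, Sdc4, at -82 to -73 from the start, and in 4.51% of all 32851 mouse windows. The AP-1 motif TGANTCA was found in 0 of the 6 and in 7.81% of all windows. These are matches of letters and say nothing of binding.

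The kept libraries held 284457 to 43417945 counts on genes. Levels are given as CPM, counts per 1000000 counts of a library size scaled by the TMM method, which moves a shallow or unusual library most: in lung 6 hr replicate 4, 1 count was 28.9 CPM. Several libraries limit what follows. The library labelled brain 6 hr replicate 6 was nearer the brain 0 hr libraries (Pearson's r over genes 0.984 with their mean, against 0.948 with the other 6 hr libraries), with 0.694 CPM of P-selectin (Selp) where the other brain 6 hr libraries had 63.1 to 133 CPM. The library labelled heart 6 hr replicate 5 was likewise nearer 0 hr (0.991 against 0.933), with 6.50 CPM of Selp against 454 to 932 CPM in the others. In the library labelled heart 72 hr replicate 1 Lcn2, lipocalin 2, an acute-phase gene, was at 12.3 CPM, within the 0 hr range of 7.51 to 19.7 CPM and below the 581 to 3749 CPM of its group. Lung 6 hr replicate 4 held only 284457 counts, and lung 6 hr replicates 1 and 2 had 6.93% and 8.12% of reads on genes. The calls at 6 hr and from 6 to 168 hr are also given without brain 6 hr replicate 6, heart 6 hr replicate 5, heart 72 hr replicate 1 and lung 6 hr replicate 4, a choice made after seeing the data. The brain and heart libraries among these were picked for a weak response to LPS. Leaving them out thus favours larger changes after LPS with less spread, and the values without them are no independent support. Transcripts that mark other cell types were present in the pull-downs. The paper proposes that endothelium itself expresses such genes. Whether they came from endothelium or from other cells was not tested. Over all times, the summed level of 10 endothelial markers had a median of 2938 CPM in brain, 14254 in lung and 9427 in heart, beside 1891 CPM for 8 neuron markers and 1888 CPM for 6 astrocyte markers in brain, 5912 CPM for 7 alveolar and airway epithelium markers in lung, and 3470 CPM for 6 cardiomyocyte markers in heart. In such bulk pull-downs fewer cells of a type and less RNA per cell cannot be told apart.

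At 0 hr the pull-downs of the 3 tissues held different sets of core proteins, and the plot of levels before LPS shows each library. In brain at 0 hr the endothelial sum had a median of 2411 CPM. There the neuron, oligodendrocyte and astrocyte sums had medians of 3335, 4125 and 2101 CPM. The endothelial sum was 14289 CPM in lung and 9465 CPM in heart. The part of this makeup in the differences between tissues was not tested. Levels are compared between genes as CPM per kb of exon. Sdc3 and Hspg2 led in heart, with medians of 103 and 89.8 CPM per kb, while Sdc4 led in lung at 128 and in brain at 40.1 CPM per kb. Sdc4 and Sdc3 overlapped between libraries in brain (25.6 to 80.2 against 24.6 to 34.8 CPM per kb) and in lung (23.4 to 169 against 46.3 to 90.3 CPM per kb), so their order there is not set. Of the summed level of the 4 syndecans per kb, Sdc3 made up a median of 87.5% in heart, 34.7% in brain and 35.1% in lung, and Sdc4 4.55% in heart, 40.1% in brain and 59.4% in lung. Has1 and Has2 were the lowest of the 10 in each tissue, with medians at or under 0.175 CPM per kb.

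**Figure D1:**
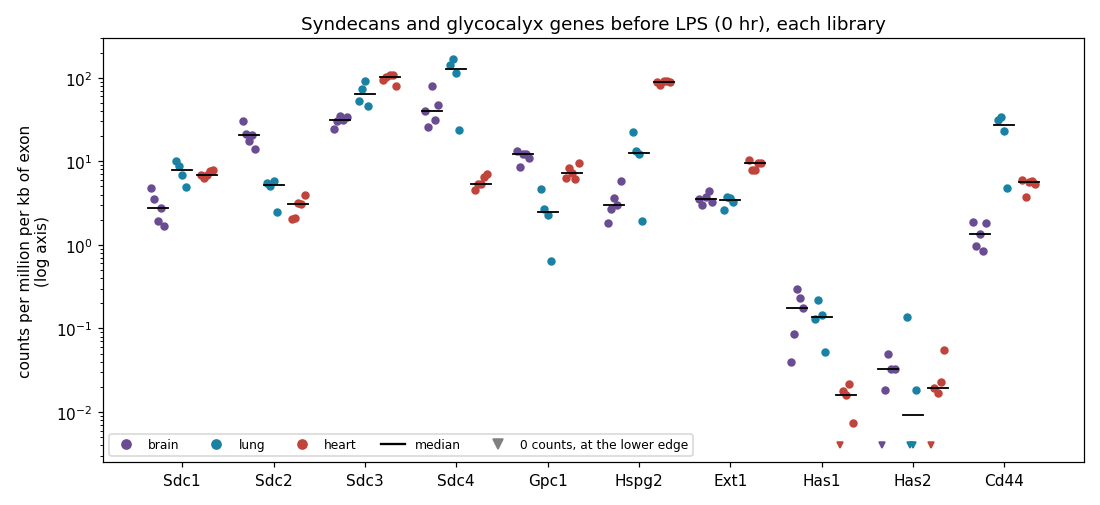
Levels of the 10 genes at 0 hr in brain (5 libraries), lung (4) and heart (5), in CPM per kb of exon on a log axis. Each point is 1 library, bars are medians, and triangles at the lower edge are libraries with 0 counts. Hspg2 and Sdc3 stood highest in heart, Sdc2 in brain and Cd44 in lung, where 1 library lay well under the other 3 for Sdc4, Gpc1, Hspg2 and Cd44.

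Between tissues, 9 of the 10 genes were tested at 0 hr (Has2 was under the low-count filter), and 7, 8 and 7 of the 9 differed for brain against lung, brain against heart and lung against heart (edgeR quasi-likelihood test, Benjamini-Hochberg adjusted p under 0.05). Over all 17730 genes tested, 64.3%, 54.8% and 61.1% differed in the same comparisons, so these counts are to be read against a background in which most genes differed. All values from here on are log2 fold changes from that test with their standard error (SE), or CPM.

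Among the syndecans, Sdc4, a core protein that also acts in focal adhesions, was at 65.1, 78.9, 102, 121 and 204 CPM in the 5 brain libraries, at 59.6, 292, 360 and 430 CPM in the 4 lung libraries and at 11.5, 13.5, 13.7, 16.4 and 17.9 CPM in the 5 heart libraries. The heart libraries lay below every brain and lung library. Sdc4 was 7.37-fold higher in brain than in heart (log2 2.88 ± 0.41 SE, adjusted p = 2.56e-05) and 20.2-fold higher in lung than in heart (4.34 ± 0.45, adjusted p = 2.34e-06). Sdc2, the syndecan best known from mesenchymal cells and from angiogenesis, was highest in brain, with 49.2 to 108 CPM in brain, 8.68 to 20.4 CPM in lung and 7.27 to 14.1 CPM in heart. It was 4.22-fold higher in brain than in lung (log2 2.08 ± 0.33, adjusted p = 6.13e-05) and 7.04-fold higher than in heart (2.81 ± 0.31, adjusted p = 1.77e-06), with no overlap between brain and either tissue. Between lung and heart Sdc2 missed the threshold with edgeR (adjusted p = 0.0508) and was called by DESeq2.

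Sdc3, a large syndecan first described in neural tissue, ranged from 147 to 208 CPM in brain, 277 to 541 CPM in lung and 474 to 642 CPM in heart. It was 3.32-fold lower in brain than in heart (log2 -1.73 ± 0.22, adjusted p = 6.53e-06) with no overlap. The difference of lung from heart for Sdc3 (-0.56 ± 0.23, adjusted p = 0.0426) kept its call in only 4 of 10 other settings. Sdc3 has 463 exonic bases in common with genes on the other strand, Gpc1 977 with Ankmy1 and Has2 182 with Has2os. Sdc1, the syndecan of epithelia and plasma cells that is measured in plasma as a shedding marker, was lower in brain (6.37 to 18.4 CPM) than in lung (18.8 to 38.3 CPM) or heart (23.9 to 30.2 CPM), by 2.77-fold and 2.60-fold (log2 -1.47 ± 0.30 and -1.38 ± 0.29, adjusted p = 0.000648 and 0.000928).

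Outside the syndecans, Hspg2, which builds the basement membrane, showed the widest gap. It was at 25.8, 38.9, 43.5, 51.8 and 83.8 CPM in brain, at 27.5, 175, 188 and 318 CPM in lung and at 1183 to 1324 CPM in heart. All 5 heart libraries lay above every library of the other tissues, 28.0-fold over brain (log2 -4.81 ± 0.53 for brain against heart, adjusted p = 1.58e-06). Gpc1 ran 44.7 to 67.8 CPM in brain, 3.28 to 24.1 CPM in lung and 31.6 to 49.6 CPM in heart, with lung lower than brain (adjusted p = 0.000385) and lower than heart (adjusted p = 0.00375). Cd44 was 18.1-fold lower in brain than in lung (log2 -4.18 ± 0.46, adjusted p = 2.25e-06), at 5.68 to 12.7 CPM against 32.3, 154, 214 and 231 CPM. Ext1 was 2.65-fold lower in brain and 2.70-fold lower in lung than in heart (adjusted p = 5.40e-06 and 1.75e-05), with 24.0 to 35.4, 20.9 to 30.4 and 63.8 to 84.6 CPM. Has1 was near the limit of detection, at 2 to 38 counts a library in brain, 2 to 22 in lung and 0 to 3 in heart, and on these counts it passed for brain and lung against heart (log2 3.52 ± 0.59 and 3.43 ± 0.63, adjusted p = 0.000109 and 0.000299). In lung, replicate 4 at 0 hr had the lowest level of all members but Has2 and Ext1, and 56.2% of its reads on genes where the other 3 had 18.8% to 28.6%.

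After LPS, Sdc4 and Has1 rose in brain and heart, Has1 rose in lung, Cd44 and Ext1 rose in heart, Sdc1 fell in heart, and Sdc2 and Gpc1 fell in brain. The map of changes gives every value. In heart, 5, 3, 2, 0 and 0 of the 9 genes tested passed at 6, 24, 48, 72 and 168 hr against 0 hr, beside 42.8%, 16.2%, 4.19%, 0.275% and 0% of all 16024 genes. In brain, 2, 2, 3, 0 and 0 of 9 passed, beside 6.44%, 11.2%, 14.2%, 3.53% and 0% of 19234 genes. In lung, 1, 0, 0, 0 and 0 of 10 passed, beside 4.83%, 0.375%, 0.598%, 0.193% and 0.0117% of 17058 genes. Where edgeR called 0 members, 2 and 1 had an unadjusted p under 0.05 in brain at 72 and 168 hr, 2 and 0 in heart, and 1, 1, 1 and 2 in lung from 24 to 168 hr. At these times limma-voom called 0 and DESeq2 called 0 except for Has1 in lung at 72 hr. The median log2 fold change of all genes lay within 0.1 of 0 in every comparison of brain and heart with 0 hr. It was -0.42 at 6 hr and -0.12 at 24 hr in lung, where the median over the 10 genes at 6 hr was 0.78.

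**Figure D2:**
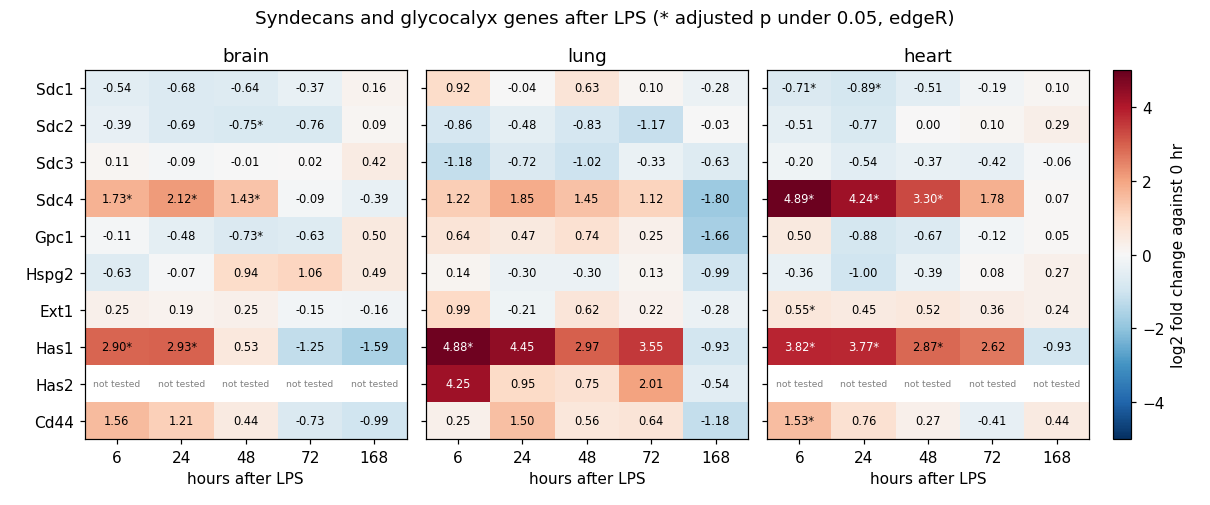
Log2 fold change of the 10 genes against 0 hr (rows) at 6 to 168 hr after LPS (columns) in brain, lung and heart, from edgeR with library series as a covariate. Red is higher and blue lower than 0 hr, and an asterisk marks an adjusted p under 0.05. Sdc4 reached 4.89 in heart at 6 hr and 2.12 in brain at 24 hr, and Has1 was positive at 6 to 48 hr in all 3 tissues.

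Sdc4 had the largest change among the syndecans. In heart it rose from 11.5 to 17.9 CPM at 0 hr to 440, 476, 543 and 564 CPM in 4 of the 6 hr libraries, while the library labelled replicate 5 had 22.1 CPM. It was at 303, 332, 333 and 354 CPM at 24 hr, at 57.7, 59.3, 108, 246, 285 and 296 CPM at 48 hr, at 18.6, 57.8, 61.0 and 91.6 CPM at 72 hr, and at 14.1, 14.4, 15.1 and 30.2 CPM at 168 hr. Every heart library from 6 to 72 hr was above the whole 0 hr group. The changes against 0 hr were 29.6-fold at 6 hr (log2 4.89 ± 0.64, adjusted p = 1.55e-05), 18.8-fold at 24 hr (4.24 ± 0.64, adjusted p = 0.000595) and 9.82-fold at 48 hr (3.30 ± 0.61, adjusted p = 0.00261). At 72 hr the difference of 1.78 ± 0.59 did not pass (adjusted p = 0.346). Without the libraries labelled 6 hr replicate 5 and 72 hr replicate 1 it was 1.99 ± 0.39 and did (adjusted p = 0.00311), and the 6 hr change was 5.28 ± 0.40 (adjusted p = 3.26e-10). The share of all genes called at 72 hr rose as well, from 0.275% to 2.91%.

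In brain, Sdc4 was at 65.1 to 204 CPM before LPS and at 291, 381, 414 and 765 CPM in 4 libraries at 6 hr, beside 102 CPM in the library labelled replicate 6. At 24 hr it was at 272, 626, 680 and 802 CPM, all above 0 hr, and at 48 hr at 152, 171, 191, 466.4, 475 and 625.1 CPM, of which 3 lay above 0 hr. It rose 3.32-fold at 6 hr (log2 1.73 ± 0.44, adjusted p = 0.0157), 4.36-fold at 24 hr (2.12 ± 0.50, adjusted p = 0.00821) and 2.70-fold at 48 hr (1.43 ± 0.46, adjusted p = 0.0365). By 72 and 168 hr the 8 libraries, at 73.3 to 160 CPM, lay within the range of 0 hr. The 48 hr call was lost when any of replicates 1, 2, 4 and 5 at 0 hr or 3 and 6 at 48 hr was left out (adjusted p up to 0.117). The 6 hr call was lost when replicate 2 at 6 hr or replicate 4 at 0 hr was left out (adjusted p up to 0.0719), and it was 2.07 ± 0.40 without the library labelled replicate 6 (adjusted p = 0.000651).

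**Figure D3:**
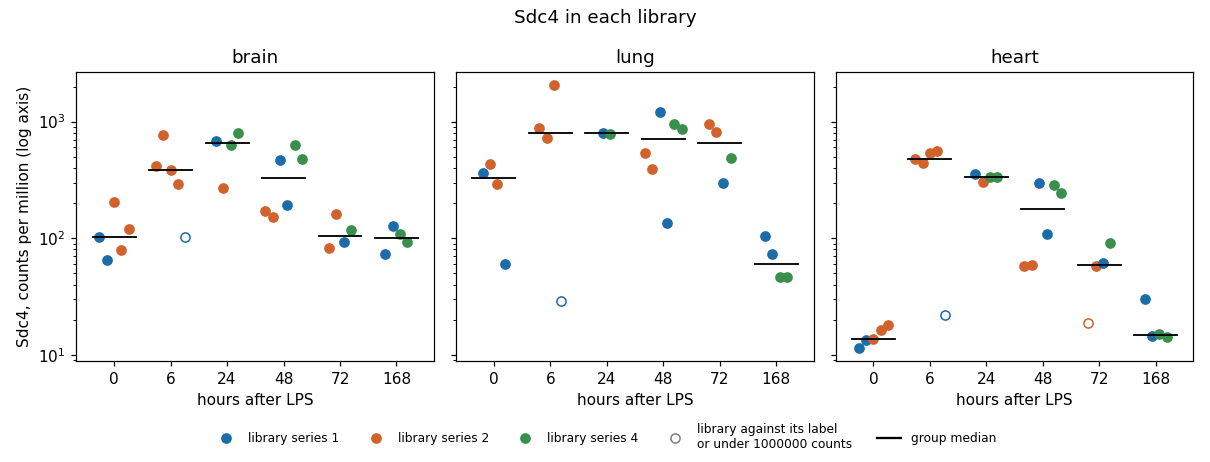
Sdc4 in CPM (log axis) in each of the 80 libraries by hours after LPS, in brain, lung and heart. Points are libraries, coloured by library series, bars are group medians, and open points are the libraries that went against their label or held under 1000000 counts. In heart the 0 hr libraries spanned 11.5 to 17.9 CPM and the filled 6 hr points 440 to 564 CPM.

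In lung, where the resting level was higher, Sdc4 was at 28.9, 719, 881 and 2061 CPM at 6 hr against 59.6, 292, 360 and 430 CPM at 0 hr, the lowest value resting on 1 count in replicate 4. Both 24 hr libraries, at 789 and 798 CPM, lay above 0 hr. The differences of 1.22 ± 0.81 at 6 hr and 1.85 ± 0.94 at 24 hr did not pass (adjusted p = 0.371 and 0.864), and without replicate 4 the 6 hr difference was 1.82 ± 0.73 (adjusted p = 0.152). At 168 hr the level was 46.0, 46.8, 72.7 and 104 CPM, and the difference from 0 hr of -1.80 ± 0.81 did not pass either (adjusted p = 1.00). In lung the neutrophil marker sum moved with Sdc4, at 30.6 to 205 CPM at 0 hr, 1424 and 2673 CPM at 24 hr and 22.6 to 215 CPM at 168 hr, and its part in the Sdc4 level was not tested. The share of reads on genes also differed between lung libraries. The 4 lung libraries with over 50% on genes, 0 hr replicate 4 and 168 hr replicates 2, 4 and 5, had 46.0 to 72.7 CPM of Sdc4, 32.3 to 49.2 CPM of Cd44, 27.5 to 39.9 CPM of Hspg2 and 1.67 to 3.28 CPM of Gpc1. Across the 24 lung libraries Pearson's r with that share was -0.77 for Gpc1 and -0.65 for Hspg2 on the log2 scale, a description over libraries that share tissue and time. The 24 include 6 hr replicate 4, with 3.40% of reads on genes, 1 count of Gpc1 and 3 of Hspg2. The part of that share in the differences between times was not tested.

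**Figure D4:**
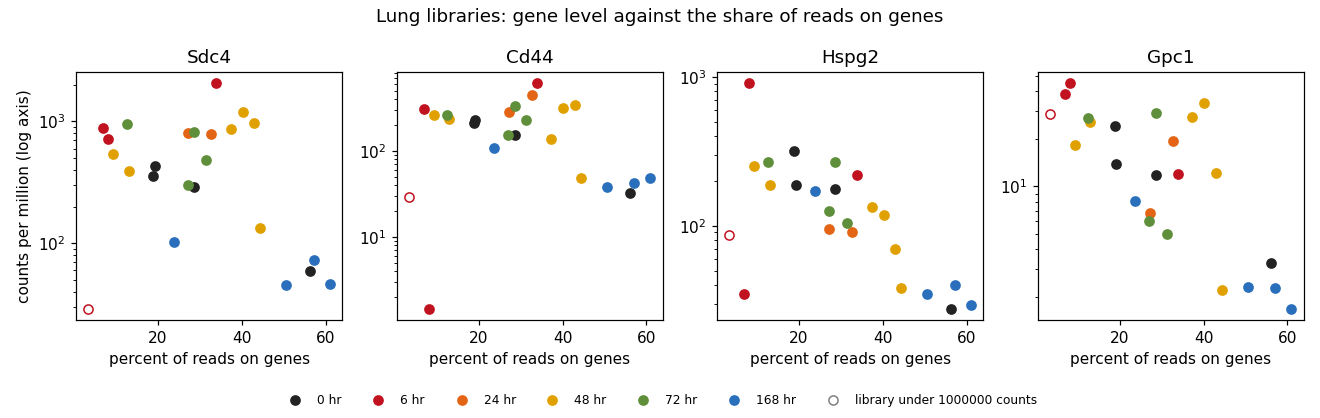
Levels of Sdc4, Cd44, Hspg2 and Gpc1 in CPM (log axes) against the percent of reads on genes in the 24 lung libraries, coloured by hours after LPS; the open point is the library with 284457 counts. The 4 libraries over 50% sat at 27.5 to 72.7 CPM for Sdc4, Cd44 and Hspg2 and at 1.67 to 3.28 CPM for Gpc1.

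The size of the Sdc4 response differed between tissues at 6 hr. It was smaller in brain than in heart by 3.01 ± 0.78 on the log2 scale (brain minus heart -3.01, adjusted p = 0.0413) and smaller in lung than in heart (lung minus heart -3.06 ± 0.82, adjusted p = 0.00629). Brain and lung did not differ detectably (0.04 ± 0.80, adjusted p = 1.00). The difference of brain from heart was lost in 6 of 7 fits that each left out a replicate number, with limma-voom, with no library series covariate and with all libraries (adjusted p up to 0.448). Without the 4 libraries named above it was -2.99 ± 0.66 (adjusted p = 0.00185). The difference of lung from heart was lost without replicate 1 or 2 and with limma-voom. It was -1.95 and did not pass among lung libraries with at least 10% of reads on genes (adjusted p = 0.385).

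Sdc1 moved the other way in heart. It was at 23.9 to 30.2 CPM at 0 hr, at 10.7, 11.1, 14.4, 14.8 and, in the library labelled replicate 5, 30.9 CPM at 6 hr, and at 9.88, 11.1, 17.4 and 19.2 CPM at 24 hr. It fell 1.63-fold at 6 hr (log2 -0.71 ± 0.25, adjusted p = 0.0275) and 1.85-fold at 24 hr (-0.89 ± 0.29, adjusted p = 0.0411), with all 24 hr libraries below all 0 hr libraries. The 6 hr call held in 22 of 28 fits without 1 library, and was lost without replicate 4 or 5 at 0 hr or replicate 1, 2, 3 or 4 at 6 hr. The 24 hr call held in 15 of 28, and was lost without any 0 hr or 168 hr library, 24 hr replicate 1, 2 or 4, or 48 hr replicate 7. Without the library labelled replicate 5 the fall at 6 hr was -1.14 ± 0.22 (adjusted p = 0.000104). At 168 hr it was back at 24.9 to 34.1 CPM and higher than at 6 hr (0.81 ± 0.30, adjusted p = 0.0340). That call held in 19 of 28 fits without 1 library and was lost with all libraries (adjusted p up to 0.0815). Within library series 1, through the 6 hr library labelled replicate 5, the difference was -0.19. In brain Sdc1 was at 3.99, 4.603, 5.10 and 6.14 CPM in 4 of the 6 hr libraries and 16.0 CPM in that labelled replicate 6, against 6.37 to 18.4 CPM at 0 hr, and the difference of -0.54 ± 0.23 did not pass (adjusted p = 0.206), nor did it without that library (-0.66 ± 0.26, adjusted p = 0.0919).

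In lung Sdc1 was at 0, 38.3, 61.1 and 188 CPM at 6 hr against 18.8 to 38.3 CPM at 0 hr. The response in lung exceeded that in brain (brain minus lung -2.31 ± 0.58, adjusted p = 0.00520) and in heart (lung minus heart 2.43 ± 0.58, adjusted p = 0.00244). Both calls were lost without the lung libraries under 10% of reads on genes, at -1.25 and 1.33 (adjusted p = 0.329 and 0.298), where lung replicate 3 is the 1 library left at 6 hr, and both were lost without the libraries numbered replicate 1. In lung at 6 hr, replicate 1, with the 188 CPM of Sdc1, also had the highest sums of epithelium, macrophage and lymphocyte markers, at 26550, 3594 and 3382 CPM against 6418 to 12312, 199 to 533 and 31.4 to 102 CPM at 0 hr. Across the 24 lung libraries Sdc1 correlated with these sums (Pearson's r 0.79, 0.89 and 0.69) and with that of mesothelium markers (0.88), a description, and their part in the Sdc1 response was not tested. The 24 include lung 6 hr replicate 4, whose 0 counts of Sdc1 allow up to 86.7 CPM. The lowest macrophage, lymphocyte and mesothelium sums in lung at 6 hr were also 0 CPM. How far the correlations rest on such empty values was not tested. The other differences in response, over 3 tissue pairs and 5 times, did not pass with edgeR on all kept libraries, though DESeq2 also called Ext1 at 6 hr for brain minus lung and for lung minus heart. At 6 hr 13.3%, 0.636% and 18.1% of the 22007 genes passed for brain minus lung, brain minus heart and lung minus heart. At 24, 48, 72 and 168 hr the shares were 3.85%, 3.54%, 0.377% and 0.0273% for brain minus lung, 0.327%, 0.463%, 0.318% and 0% for brain minus heart, and 1.67%, 1.13%, 0.154% and 0.0182% for lung minus heart. There, 0, 1, 1 and 5 members had an unadjusted p under 0.05 for brain minus lung, 1, 1, 2 and 0 for brain minus heart, and 2, 3, 0 and 3 for lung minus heart. From 24 hr on, DESeq2 called Sdc4 for lung minus heart at 24 and 48 hr and Has1 for brain minus lung at 72 hr, and limma-voom called 0. Without the 4 libraries edgeR also called Sdc4 for lung minus heart at 24 hr (-2.91 ± 0.80, adjusted p = 0.0316) and 48 hr (-2.19 ± 0.61, adjusted p = 0.0466), and with the lung limit of 10% it called Has1 for brain minus lung at 72 hr (-4.51 ± 1.22, adjusted p = 0.0449).

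Sdc2 and Gpc1 fell in brain at 48 hr. Sdc2 went from 49.2 to 108 CPM at 0 hr to 26.3, 39.9, 43.0, 47.1, 59.2 and 62.2 CPM (log2 -0.75 ± 0.24, adjusted p = 0.0371), with overlap. Gpc1 went from 44.7 to 67.8 CPM to 19.3, 20.4, 26.2, 33.8, 34.2 and 42.4 CPM, all below 0 hr (-0.73 ± 0.21, adjusted p = 0.0249). Both calls were lost with limma-voom. That of Sdc2 was also lost without any of replicates 1 to 4 at 0 hr or 3 and 4 at 48 hr, and that of Gpc1 without replicate 1 at 0 hr or 3, 6 or 7 at 48 hr (adjusted p up to 0.117 and 0.150). Over the same times the neuron sum in brain went from 1232 to 5042 CPM to 596 to 2723 CPM and the oligodendrocyte sum from 858 to 5859 CPM to 381 to 3052 CPM. Across the 28 brain libraries Gpc1 correlated with these sums (Pearson's r 0.69 and 0.68) and with the endothelial sum at -0.75, and Sdc2 at 0.74 with the share of reads on genes, descriptions whose part in the falls was not tested. At 168 hr both genes were back at 51.3 to 118 and 44.7 to 76.2 CPM. In heart Gpc1 was at 32.3, 37.0, 41.6, 79.1 and 93.8 CPM at 6 hr and at 10.1, 14.4, 21.2 and 21.8 CPM at 24 hr, a fall of 2.60-fold between these times (-1.38 ± 0.32, adjusted p = 0.0194) that was not called without replicate 1 at 6 hr or replicate 1 or 2 at 24 hr. The cardiomyocyte marker sum correlated with Gpc1 across the 28 heart libraries (Pearson's r 0.81, a description), and its part in the Gpc1 level was not tested. Sdc2 in heart ran from 7.27 to 14.1 CPM at 0 hr and from 4.202 to 12.4 CPM at 6 hr, and passed only without the library labelled replicate 5 (-0.93 ± 0.28, adjusted p = 0.00614). Sdc3 and Hspg2 passed at no time in any tissue with edgeR. Hspg2 in heart was at 408, 440.0, 479 and 879 CPM at 24 hr, all below the 1183 to 1324 CPM of 0 hr, and the difference of -1.005 ± 0.41 did not pass with edgeR (adjusted p = 0.0846) but was called by DESeq2. At 48 hr it ranged from 235 to 1874 CPM.

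On the hyaluronan side, Has1, which was nearly silent at rest, rose in all 3 tissues. In brain it was at 0.179 to 1.34 CPM at 0 hr and at 4.26, 9.10, 10.1 and 13.5 CPM at 6 hr in 4 libraries, beside 0.462 CPM in that labelled replicate 6. At 24 hr it was at 2.32, 2.45, 6.89 and 21.4 CPM, all above 0 hr. It rose 7.45-fold at 6 hr (log2 2.90 ± 0.73, adjusted p = 0.0148; 3.26 ± 0.70 without that library) and 7.63-fold at 24 hr (2.93 ± 0.85, adjusted p = 0.0280), and both calls were lost with limma-voom. Leaving out replicate 5 at 0 hr ended the 6 hr call, and leaving out replicate 1, 2 or 5 at 0 hr or 1 or 5 at 24 hr ended the 24 hr call. At 48 hr 1 of 6 brain libraries, at 4.93 CPM, was above 0 hr.

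In heart Has1 had 0 to 3 counts a library at 0 hr and 19, 22, 25 and 31 counts in 4 of the 6 hr libraries, or 1.03 to 1.71 CPM, and 0 counts in that labelled replicate 5, which allows up to 0.191 CPM. The changes were 3.82 ± 0.79 at 6 hr (adjusted p = 0.000824), 3.77 ± 0.85 at 24 hr (adjusted p = 0.00648) and 2.87 ± 0.82 at 48 hr (adjusted p = 0.0459) on the log2 scale, and that at 6 hr was 4.15 ± 0.60 without replicate 5 and 72 hr replicate 1 (adjusted p = 3.49e-06). At 24 hr the libraries had 2, 7, 11 and 36 counts, and leaving out the highest, replicate 2, ended that call (adjusted p up to 0.0835). The 48 hr call held in only 7 of 28 fits without 1 library. At 168 hr 3 of 4 heart libraries had 0 counts, which allows up to 0.0790 to 0.262 CPM.

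In lung Has1 was at 0.234, 0.580, 0.655 and 0.988 CPM at 0 hr. At 6 hr replicates 2 and 3 were at 61.1 and 20.0 CPM, on 42 and 638 counts, and replicates 1 and 4 had 0 counts, which allows up to 1.79 and 86.7 CPM, so that replicate 4 cannot be set apart from the libraries with Has1. The 6 hr change was 4.88 ± 1.27 on the log2 scale (adjusted p = 0.0236) and was not called without replicate 2 at 6 hr, without replicate 2 or 3 at 0 hr, or among libraries with at least 10% of reads on genes. The makeup of the lung libraries also moved at 6 hr. The endothelial sum was 1993 to 14190 CPM against 12433 to 17104 CPM at 0 hr, with Erg lower (-3.01 ± 0.76, adjusted p = 0.0201), while the cardiomyocyte sum went from 61.6 to 152 CPM to 115 to 1373 CPM and the astrocyte sum from 8.30 to 21.8 CPM to 8.36 to 520 CPM, and their part in the lung values at 6 hr was not tested. At 24 hr both libraries, at 8.09 and 15.6 CPM, and at 72 hr all 4, at 3.83, 5.09, 6.98 and 11.5 CPM, lay above 0 hr, but the differences of 4.45 ± 1.43 and 3.55 ± 1.15 did not pass (adjusted p = 0.322 and 0.325). At 168 hr the level was 0.161 to 0.531 CPM. The Has1 responses at 6 hr did not differ detectably between tissues (brain minus heart -0.72 ± 1.13, adjusted p = 0.888).

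Has2, the synthase that makes long hyaluronan in many mesenchymal cells, was under the filter in brain and heart and had 0 to 75 counts a library in brain. In heart it had 5, 8, 12 and 21 counts in 4 of the 6 hr libraries, or 0.2501 to 1.16 CPM, against 0 to 7 counts at 0 hr. In brain at 6 hr it had 75 counts in replicate 2 and 0 to 10 in the others.

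Cd44, which binds hyaluronan on endothelium and on leukocytes, rose in heart at 6 hr. It went from 25.5, 36.0, 38.3, 39.9 and 40.5 CPM at 0 hr to 126, 132, 138 and 156 CPM in 4 libraries, against 17.7 CPM in the library labelled replicate 5 (2.89-fold, log2 1.53 ± 0.44, adjusted p = 0.00808). Without that library and 72 hr replicate 1 the rise was 1.97 ± 0.34 (adjusted p = 2.75e-05). At 24 hr it was at 38.5, 45.1, 96.8 and 124 CPM and the difference of 0.76 ± 0.48 did not pass (adjusted p = 0.259). In brain Cd44 was at 20.2, 27.8, 30.2 and 83.5 CPM in 4 of the 6 hr libraries and 7.32 CPM in that labelled replicate 6, against 5.68 to 12.7 CPM, and the difference of 1.56 ± 0.49 was just over the threshold (adjusted p = 0.0536). Without that library it passed at 1.92 ± 0.47 (adjusted p = 0.00603). In lung Cd44 ranged from 1.45 to 614 CPM at 6 hr and did not pass at any time.

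**Figure D5:**
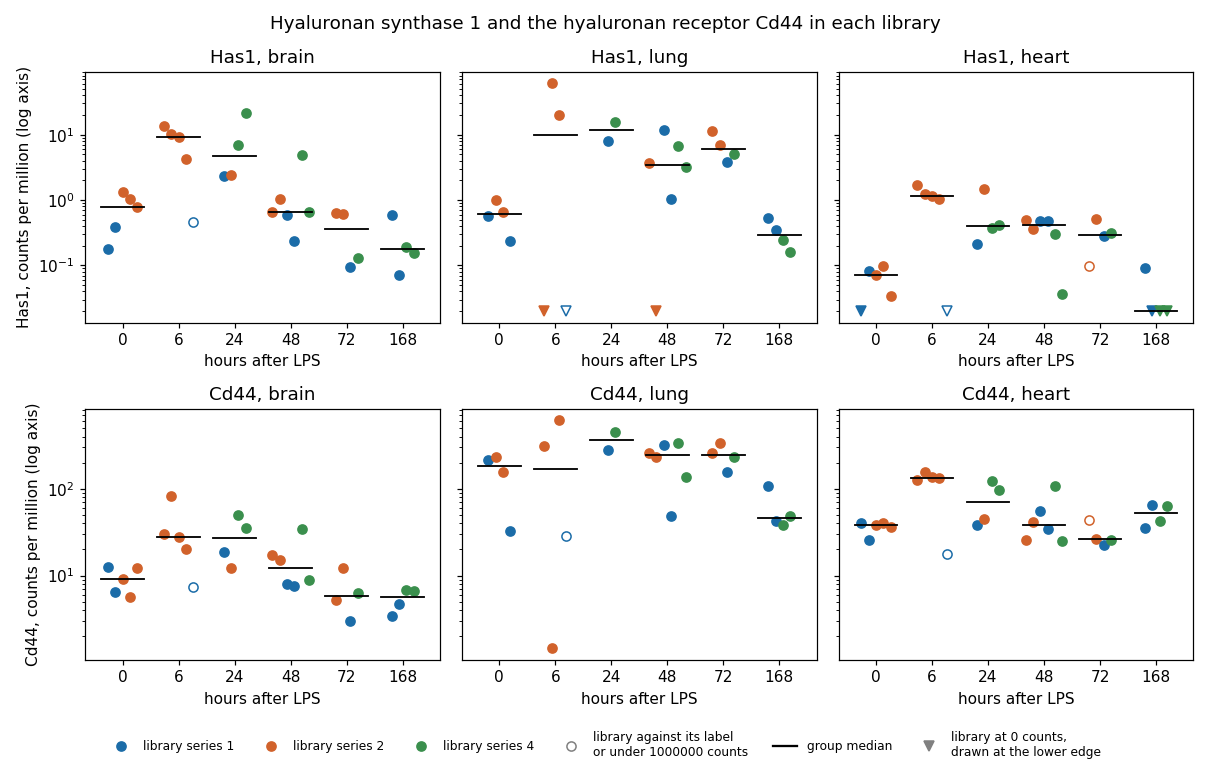
Has1 (upper row) and Cd44 (lower row) in CPM (log axes) in each library by hours after LPS in brain, lung and heart. Points are libraries coloured by library series, bars are group medians, open symbols are the libraries that went against their label or held under 1000000 counts, and triangles at the lower edge are libraries with 0 counts. The filled 6 hr points of Cd44 in heart span 126 to 156 CPM against 25.5 to 40.5 CPM at 0 hr.

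Leukocyte markers were examined beside Cd44 and Sdc4. The sum of 7 neutrophil markers in heart was 0.538 to 0.941 CPM at 0 hr and 0.510 to 59.7 CPM at 6 hr, and the sum of 7 macrophage and monocyte markers was 26.2 to 46.6 CPM at 0 hr and 15.2 to 26.4 CPM at 6 hr. In brain the neutrophil sum was 5.56 to 52.6 CPM at 0 hr and 6.94 to 393 CPM at 6 hr. Their part in the results was not tested. Of the 10 endothelial markers, 7 fell and 1 rose in heart at 6 hr, where 42.8% of all 16024 genes were called, 3257 lower and 3597 higher. The sum of these markers went from 9370 to 10407 CPM to 4736 to 9356 CPM.

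Ext1 rose 1.46-fold in heart at 6 hr (log2 0.55 ± 0.17, adjusted p = 0.0128; 0.69 ± 0.17 without the libraries against their label), from 63.8 to 84.6 CPM to 79.7, 80.9, 102, 120 and 130 CPM, with overlap, a call that was lost with no low-count filter. All heart libraries at 24 hr (87.2 to 130.1 CPM) and 48 hr (88.4 to 142 CPM) were above 0 hr, without a call (adjusted p = 0.0940 and 0.0762). In brain it was at 24.0 to 35.4 CPM at 0 hr and 27.4 to 38.3 CPM at 6 hr, and in lung it was at 20.9 to 30.4 CPM at 0 hr and 23.5 to 109.5 CPM at 48 hr, without a call.

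Between times after LPS, the fits gave falls of Sdc4 and Has1 from 6 hr to 168 hr. Libraries at 6 hr were of series 1 and 2 and those at 168 hr of series 1 and 4. Series 1 held both times only through brain 6 hr replicate 6, lung 6 hr replicate 4 and heart 6 hr replicate 5. The falls thus rest on comparison across series. Within series 1 the log2 difference for Sdc4 was -0.09 in brain and -0.08 in heart, and for Has1 -0.71 in brain, 0.47 in heart and 2.44 in lung. From 6 to 168 hr, 3 of 9 genes passed in brain, 1 of 10 in lung and 3 of 9 in heart, beside 8.54%, 5.39% and 39.3% of all genes. Sdc4 fell 28.3-fold in heart (log2 -4.82 ± 0.78, adjusted p = 0.000244) and 4.33-fold in brain (-2.12 ± 0.57, adjusted p = 0.0218), and Has1 fell by 4.75 ± 1.19 in heart, 4.49 ± 1.09 in brain and 5.80 ± 1.51 in lung on the log2 scale (adjusted p = 0.00470, 0.0127 and 0.0198). The lung call was lost with limma-voom, with the replicate block, with the lung limit of 10%, and without 6 hr replicate 2 or 168 hr replicate 4 or 5. The brain calls of Has1 and Sdc4 were lost without 168 hr replicate 4 or 5. Without the 4 libraries the log2 change of Sdc4 was -5.38 ± 0.50 in heart and -2.65 ± 0.52 in brain, and that of Has1 -5.16 ± 0.93, -5.20 ± 1.06 and -6.12 ± 1.58 in heart, brain and lung. In lung Sdc4 was not called from 6 to 168 hr with edgeR on all kept libraries. DESeq2 called it there, and so did edgeR without the 4 libraries. Cd44 fell 5.87-fold in brain (-2.55 ± 0.59, adjusted p = 0.0101), where all 168 hr libraries, at 3.44 to 6.92 CPM, were below all 6 hr libraries. From 6 to 24 hr, 1 of 9 passed in heart (Gpc1), beside 4.74% of all genes, and 0 of 9 in brain and 0 of 10 in lung, beside 0.291% and 0.00586%. There 0 members had an unadjusted p under 0.05 in brain and in lung, and DESeq2 and limma-voom called 0 in both. Without the 4 libraries, 17 rather than 8 calls were made in these comparisons. Has2 in heart is among the 17. It passed the low-count filter there only without these libraries and through the 6 hr group where it was high, so its call is no support. The shares of all genes moved as well. From 6 to 168 hr they went from 8.54% to 20.4% in brain, from 39.3% to 56.8% in heart and from 5.39% to 4.28% in lung. From 6 to 24 hr the share in heart went from 4.74% to 29.8%.

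The calls were examined within library series, the sets of libraries that share a pattern of deposited file names, since every 6 hr library was of series 2 except brain replicate 6, lung replicate 4 and heart replicate 5. Within series 2, the difference of mean log2 CPM between 6 and 0 hr was 4.97 for Sdc4 in heart and 1.79 in brain, 3.07 and 2.92 for Has1, and 1.85 for Cd44 in heart. Within series 1, Sdc4 at 24 hr was higher than at 0 hr by 4.82 in heart and by 3.06 in brain, and within series 2 by 4.24 and 1.12, with 1 library at 24 hr in each. Of 89 such within-series differences for the called comparisons, 82 had the sign of the pooled change. All 73 that used none of the 4 libraries did. The comparisons were chosen by their calls on these same libraries, with series as a covariate. Agreement in sign was thus largely set in advance and is no independent check. Many of the 73 were differences between tissues at 0 hr. Every within-series difference between 6 hr and the last time used 1 of the 4 libraries, and some had the other sign.

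Other genes of the glycocalyx, in lists chosen with earlier results of these data known, changed in both directions. Among 14 other proteoglycan core proteins, 4 of 14 tested rose and 0 fell in brain at 24 hr, 1 of 12 rose and 1 fell in lung at 6 hr, and 2 of 12 rose and 4 fell in heart at 6 hr, where 11.2%, 4.83% and 42.8% of all genes were called. Decorin (Dcn), a collagen-binding proteoglycan of fibroblasts, went from 222 to 713 CPM in brain at 0 hr to 1051 to 3844 CPM at 24 hr (log2 1.85 ± 0.39, adjusted p = 0.00389). The sum of 6 fibroblast markers, Dcn among them, went from 510 to 1565 CPM to 1384 to 4548 CPM, and its part in the change was not tested. Versican (Vcan), a large hyaluronan-binding proteoglycan, rose in lung at 6 hr from 0.659 to 6.67 CPM to 33.7 to 144 CPM (5.33 ± 0.87, adjusted p = 0.00109) and in heart from 0.898 to 3.57 CPM to 2.36 to 47.6 CPM (3.26 ± 0.63, adjusted p = 0.000462). The median of the list was -0.22 in heart at 6 hr against -0.05 over all genes.

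Of the enzymes of heparan sulfate synthesis, 8 fell and 3 rose of 23 tested in heart at 6 hr, near the 42.8% of all genes called there, and 4 fell and 2 rose of 26 in brain at 48 hr, beside 14.2% of all genes. The list medians were -0.23 and -0.27, against -0.05 and 0.02 over all genes. Ext2, the partner of Ext1 in the chain polymerase, fell in heart at 6 hr from 103 to 127 CPM to 20.8 to 93.7 CPM (log2 -1.40 ± 0.23, adjusted p = 8.22e-05), the reverse of Ext1. The 3-O-sulfotransferase gene Hs3st2 fell in brain at 48 hr (-1.51 ± 0.24, adjusted p = 0.000332) and its relative Hs3st1 in lung at 6 hr, from 96.8 to 208 CPM to 0 to 10.1 CPM (-4.32 ± 0.76, adjusted p = 0.00183), in the libraries with the lower endothelial sums given above.

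Among 9 tested genes of shedding and remodelling, 2 rose and 2 fell in heart at 6 hr, near the 42.8% of all genes, and 1 rose in brain and 1 in lung at 48 hr, beside 14.2% and 0.598%. Mmp14, a membrane protease, rose in heart at 6 hr from 22.5 to 40.4 CPM to 25.0 to 470 CPM (log2 2.81 ± 0.46, adjusted p = 9.68e-05). Mmp9, a gelatinase that neutrophils also carry, rose at 48 hr in lung from 0.860 to 1.67 CPM to 16.9 to 76.9 CPM (5.27 ± 0.69, adjusted p = 0.000175) and in brain from 0.179 to 1.62 CPM to 1.04 to 7.43 CPM (2.48 ± 0.56, adjusted p = 0.00595). The neutrophil sum in lung was 623 to 4704 CPM at 48 hr against 30.6 to 205 CPM at 0 hr, and its part in the Mmp9 level was not tested.

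Of 15 tested genes of hyaluronan turnover and its receptors, 2 rose and 6 fell in heart at 6 hr, beside 42.8% of all genes, with a list median of -1.15 against -0.05 over all genes, and 1 rose and 2 fell in brain, beside 6.44%. The cell-surface hyaluronidase Cemip2 rose at 6 hr in both, from 20.0 to 23.6 CPM to 27.7 to 134 CPM in brain (log2 1.80 ± 0.28, adjusted p = 0.000301) and from 113 to 161 CPM to 154 to 808 CPM in heart (1.94 ± 0.30, adjusted p = 5.45e-05). In lung the lowest adjusted p of the list was that of the hyaluronidase Hyal2 at 6 hr (-2.21 ± 0.68, adjusted p = 0.0524). Of the 4 endothelial sialomucins, 3 fell in heart and 1 in brain at 6 hr, beside 42.8% and 6.44% of all genes. Endomucin (Emcn), a mucin of capillary and venous endothelium, fell in heart from 593 to 772 CPM to 152 to 668 CPM (-1.10 ± 0.27, adjusted p = 0.00343), and Cd34 in brain from 248 to 435 CPM to 130 to 277 CPM (-0.95 ± 0.21, adjusted p = 0.00539). The endothelial sum in brain went from 1783 to 3568 CPM to 1341 to 2379 CPM at the same time, with Tie1 lower (-1.04 ± 0.15, adjusted p = 0.000199), and its part in the Cd34 level was not tested.

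The 9 members tested in all 3 tissues were last compared with 14490 other genes over the mean log2 CPM of the 18 tissue and time groups, as a description with no test. The closest pattern to Sdc4 was that of Il17ra (Pearson's r 0.96), the interleukin 17 receptor, followed by Nr4a1 (0.92), an immediate early transcription factor. Hspg2 was closest to Nrp2 (0.97) and Meox2 (0.96), Sdc2 to Slc25a23 and Fzd7 (0.98 and 0.97), and Sdc3 to Ppp1r10 and Ric1 (0.98 and 0.96). The groups share tissue, and the lung 6 hr means include replicate 4, which had 0 counts of Sdc2 and Sdc3. For Sdc3 the mean log2 CPM was 4.78 at lung 6 hr, where the other groups ran from 7.20 to 9.21. How far these values follow the differences between tissues or that 1 group was not tested. Over libraries, Sdc4 and Has1 varied together in brain (r 0.77, 28 libraries), heart (0.82, 28 libraries) and lung (0.70, 24 libraries), a description over groups that share time after LPS. The lung value includes 6 hr replicate 4, with 1 count of Sdc4 and 0 of Has1.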

How the data were processed

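RNA on HA-tagged endothelial ribosomes of brain, lung and heart was sequenced, and the authors deposited raw counts of reads per gene for each sequencing run. Per the submitters' processing notes reads were handled with STAR 2.4.2 and HTSeq 0.6.1 on mm10. The 217 runs were summed to 98 libraries by tissue, time and replicate number in the labels. The 18 libraries under 3% of reads on genes (1.73% to 2.75%, 155176 to 1330479 counts), all of library series 3, were left out, and 80 were kept. Whether libraries came from separate mice was taken from the titles alone, so p-values measure the spread between these samples. Brain, lung and heart libraries may come from the same mice, and the main fits across tissues did not model this. Of the gene identifiers, 49035 matched GENCODE M21 (GRCm38) exactly, 3368 matched without their version and 147 did not match.

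Counts were fitted with edgeR 4.0.16 (R 4.3.3; TMM scaling, filterByExpr, glmQLFit and glmQLFTest, two-sided, Benjamini-Hochberg over all genes tested) in 1 fit per tissue, 1 for the 0 hr libraries and 1 for the differences in response between tissues, each with library series (4 patterns of deposited file names) as a covariate. An adjusted p under 0.05 was a call. Log2 CPM used a prior count of 2, and CPM per kb used exon unions of GENCODE M21. Limits for 0 counts are those of 3 counts and, like all counting limits, cover counting error only. The fits were tested on simulated data with a fixed dispersion. Of 2-fold changes at 6 hr, 29%, 10% and 37% were recovered in brain, lung and heart, and 4% for brain minus heart. Of 4-fold changes, 93%, 84% and 98% were recovered, and 56% for brain minus heart. A missed call in lung or between responses therefore does not show a lack of change. Alternatives were DESeq2 1.42.0, limma-voom (limma 3.58.1), other scaling, filter, covariate and library choices, a replicate block, and each library left out. In 0 of 18 group comparisons did every same-numbered pair of libraries have a correlation of deviations over 0.1 (70 pairs, -0.54 to 0.66). The deposited names hold a label that may stand for the mouse. At 0 hr brain replicate 3, lung replicate 2 and heart replicate 3 share 1 such label. The check by number therefore cannot decide whether libraries pair by mouse. With that label as a block at 0 hr, the call of Sdc3 for lung against heart was lost.

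The 10 members were always named. From each pathway list at most 1 gene per tissue was named, that with the smallest adjusted p over the 5 times against 0 hr, and Ext2, Hs3st1 and others are named by this rule, as are the 2 genes most alike to a member; those for Has1 are not reported here. Members and lists were chosen with earlier results of these data known.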

Additional observations from a re-analysis of the deposited data

Results flagged for a closer look

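Of 158 groups of 4 to 6 libraries examined for the 10 genes, 15 held a library whose gap to the nearest other, as a share of the group's range, was above Dixon's 95% value; chance gives about 1 in 20. Of these, 5 were in libraries that went against their label. In heart 6 hr replicate 5, Sdc4 (gap 0.923 of the range), Cd44 (0.903) and Has1 (0.838) were lowest, at 22.1, 17.7 and 0 CPM where the others had at least 440, 126 and 1.03 CPM. In brain 6 hr replicate 6, Sdc2 was highest at 104 CPM against 39.3 to 49.1 CPM (gap 0.771) and Sdc3 lowest at 163 CPM against 222 to 245 CPM (gap 0.757).

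The other single libraries were as follows. Sdc2 was lowest in brain 24 hr replicate 2, at 40.0 CPM against 55.4 to 58.6 CPM (0.851), in brain 168 hr replicate 1, at 51.3 CPM against 104 to 118 CPM (0.854), and in lung 0 hr replicate 4, at 8.68 CPM against 17.7 to 20.4 CPM (0.831). Hspg2 was lowest in brain 72 hr replicate 1, at 36.5 CPM against 91.2 to 107 CPM (0.852), and Sdc1 in heart 72 hr replicate 5, at 13.9 CPM against 24.8 to 27.7 CPM (0.843). Sdc4 was highest in heart 168 hr replicate 1, at 30.2 CPM against 14.1 to 15.1 CPM (0.911), and Cd44 lowest in heart 0 hr replicate 2, at 25.5 CPM against 36.0 to 40.5 CPM (0.748). Has1 was lowest in heart 48 hr replicate 7, at 0.0366 CPM against 0.297 to 0.488 CPM (0.733). Has1 in heart 168 hr replicate 1 (0.0911 CPM) and Has2 in lung 6 hr replicate 3 (0.220 CPM) were the only libraries of their groups above 0, a gap of 1.

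The 6 hr responses that differed between tissues were those of Sdc4 (brain minus heart -3.01, lung minus heart -3.06) and Sdc1 (brain minus lung -2.31, lung minus heart 2.43).

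Among the 18 libraries left out for their low share of reads on genes, 1 a group and with no replicate, 6 values of at least 10 counts were above the left-out 0 hr library of the same tissue, in CPM of the counts on genes with no scaling. Sdc4 was at 66.2 CPM in brain at 6 hr (43 counts, against 3.44 CPM) and at 44.7 CPM in heart at 24 hr (23 counts, against 0). Sdc3 was at 15.9 CPM in lung at 72 hr (16 counts, against 0) and at 37.5 CPM in heart at 72 hr (21 counts, against 20.6 CPM). Gpc1 was at 9.92 CPM in lung at 72 hr (10 counts, against 0), and Hspg2 at 83.8 CPM in heart at 72 hr (47 counts, against 58.7 CPM).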

How the results depend on the processing

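None of the called values of the 10 genes changed direction in any alternative run, and for the other named genes no alternatives were run beyond the counts of their lists. Of 524 alternative values for the 52 called results, leaving aside those without 1 library, 486 kept their call and 38 lost it, and without 1 library 949 of 1056 kept it. The count of calls after LPS in brain, 7, was 3 with limma-voom, 11 with no low-count filter and 3 with the replicate block. In lung the 1 call became 3 with DESeq2, 0 with limma-voom and 0 among libraries with at least 10% of reads on genes. In heart the 10 calls became 16 without the libraries that went against their label, Has2 at 6 hr among them, which passed the filter through the group where it was high. The share of all genes called in heart rose as well, from 42.8% to 57.9% at 6 hr, from 16.2% to 25.6% at 24 hr and from 4.19% to 9.03% at 48 hr. The 8 calls between times became 13 with no low-count filter and 17 without those libraries and the shallow lung library, where the share of all genes also rose in brain and heart. The 4 differences in response became 9 with DESeq2, 2 with limma-voom, 10 with no low-count filter and 2 with the lung limit of 10%. Apart from the shares given above, those of all genes called under each setting are not reported here. The counts by themselves are therefore no result about the 10 genes. With the lung limit only replicate 3 was left in lung at 6 hr. The cause of these moves was not tested. Without 1 library the counts ranged from 4 to 8 in brain, 0 to 2 in lung, 7 to 14 in heart, 6 to 13 between times and 21 to 23 of the 22 at 0 hr, and without 1 replicate number from 0 to 5 for the differences in response. Leaving out library series 3 changed nothing, since it was already left out. With the replicate block, where replicates share only a number, the counts were 7 in heart, 1 in lung, 8 between times, 22 at 0 hr and 5 for the differences in response. With a prior count of 0.5, 14 of 180 group means moved by more than 1 SD. In the pathway lists, 33 of 155 counts under other settings moved by over 1.5 times. Depth limits Has1 and Has2, at 0 to 3 and 0 to 7 counts a library in heart at 0 hr.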
